A study of Mus musculus with 16 samples.

Results

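The numbered Zfp genes, most of which code for C2H2 zinc finger proteins, were examined for H3K9me3 in small intestinal crypts of wild type (WT) mice and of mice without Smarcad1 in the intestinal epithelium (KO). Peaks were taken as belonging to the set when the deposited annotation assigned them to a gene named Zfp followed by digits alone, whether the peak lay over the gene or next to it. This rule gave 605 of 212313 H3K9me3 peaks (0.285%), at 200 of the 374 Zfp genes of the GRCm38 annotation. The rule used gene names only and no measured value.

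H3K9me3, trimethylation of lysine 9 of histone H3, is a mark of heterochromatin that is bound by HP1 proteins. Many C2H2 zinc finger proteins carry a KRAB domain, which recruits the corepressor TRIM28 and through it the H3K9 methyltransferase SETDB1, so that the DNA bound by the fingers, often a retroelement, is methylated and silenced. KRAB zinc finger genes lie in clusters made by repeated gene duplication, and the 3′ exons that code for their finger arrays are themselves known to be covered with H3K9me3. Smarcad1 is an ATP-dependent chromatin remodeler linked to the maintenance of heterochromatin.

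The finger arrays are tandem repeats of a short unit, shown here because peaks over them were, as a class, the widest and the highest over input by their medians. Each line gives coding strand sequence, with the codons of the cysteines and histidines that hold the zinc ion in capitals and the linker to the next finger at the end of the unit. For Zfp809 the run holds 3 successive fingers (fingers 3 to 5 of 7, chr9:22238851-22239102 of GRCm38, plus strand), for the other genes 1 finger. The units of Zfp445 (chr9:122853378-122853461, minus strand), Zfp111 (chr7:24199303-24199386, minus strand) and Zfp60 (chr7:27748431-27748514, plus strand) lay, with that of Zfp809, in peaks that were lower in KO. Those of Zfp182 (chrX:21031156-21031239, minus strand) and Zfp873 (chr10:82059893-82059976, plus strand) lay in strongly marked peaks that were not called.
Zfp809: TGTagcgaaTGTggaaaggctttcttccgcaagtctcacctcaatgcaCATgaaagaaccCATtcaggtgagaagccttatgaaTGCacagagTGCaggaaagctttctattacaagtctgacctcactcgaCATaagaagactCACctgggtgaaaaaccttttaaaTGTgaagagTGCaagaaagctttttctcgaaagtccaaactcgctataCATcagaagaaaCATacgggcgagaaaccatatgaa
Zfp445: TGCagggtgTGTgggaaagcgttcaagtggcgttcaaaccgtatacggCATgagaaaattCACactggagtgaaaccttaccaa
Zfp111: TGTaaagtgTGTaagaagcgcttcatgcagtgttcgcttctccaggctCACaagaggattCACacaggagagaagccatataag
Zfp60: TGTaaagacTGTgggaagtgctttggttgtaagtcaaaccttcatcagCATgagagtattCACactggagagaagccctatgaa
Zfp182: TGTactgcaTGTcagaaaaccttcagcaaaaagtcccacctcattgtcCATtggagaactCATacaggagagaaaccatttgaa
Zfp873: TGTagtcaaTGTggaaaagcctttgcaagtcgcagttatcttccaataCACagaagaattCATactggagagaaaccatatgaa
Over their 84 bases, with finger 3 taken for Zfp809, the 6 units were 53.6% (Zfp111 and Zfp873) to 67.9% (Zfp809 and Zfp182) identical in the 15 pairs, with a median of 60.7%. Within Zfp809, finger 3 was 65.5% identical to finger 4, and finger 4 was 69% identical to finger 5. Despite the repeats, the median Zfp peak had 98.1% of its windows of 100 bases placed at a single position in the genome. Below 50% unique windows were 28 peaks, 3 of which were lower in KO.

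All groups were C57BL/6 mice, and chromatin came from whole crypt suspensions of the small intestine, fixed with formaldehyde. WT animals were labelled wild type. KO animals carried a floxed Smarcad1 that was excised by a Cre recombinase under the Villin promoter, which is active in the intestinal epithelium, and the suspensions were not sorted, so that cells without Cre activity were not removed. H3K9me3 (antibody ab8898) and H3K9me2 (antibody ab1220) were each profiled in 3 WT and 3 KO ChIP-seq libraries beside 1 input per genotype, the sonicated chromatin without antibody, which makes 16 libraries in all. The labels do not state an age or that replicates were separate mice, so p-values measure the spread between these libraries. Neither the deletion nor the identity of the cells could be checked here, because the tables list a repressive mark and hold no peak over Smarcad1.

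Recovered H3K9me3 reads in peaks numbered 7058048 (KO1) to 11830228 (KO2) per library, with a median of 23 to 38 reads per peak, and the inputs held 8838386 (WT) and 8452186 (KO) reads. H3K9me2 reads in regions numbered 18986927 to 39080740. Within genotypes, the H3K9me3 libraries differed by a chi-square of 1.150 to 1.315 per degree of freedom, more than sampling noise alone, and none was counted as a duplicate. The H3K9me2 libraries stood further apart, by 1.365 to 3.706 in WT and 1.371 to 3.905 in KO, with WT1 and KO3 farthest from their group. Levels are given below as the log2 values of the authors, read counts per peak that were transformed to give the 6 ChIP libraries matching distributions, and as log2 ChIP over input. The latter is the share of a library's reads in peaks that fell in the peak, divided by the same share in the input of that genotype, so 0 marks the average over all peaks and not the absence of the mark.

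The mark sat on Zfp genes unevenly, and peaks over finger codons were, by their medians, wider and higher than the other classes of Zfp peaks. Single finger peaks could be narrow and low, as at Zfp455 (1350 bp, log2 ChIP over input of -0.576 in WT). Of the 605 peaks, 504 overlapped the gene (177 genes), 60 lay past its 3′ end (44 genes) and 41 before its 5′ end (33 genes), within the 5000 bp set by the annotation. These positions follow the deposited orientation, whose meaning was read from gene strand and coordinates. It describes where the gene lies seen from the peak, so its entry "upstream" was a peak past the 3′ end at 60 of 60 Zfp peaks, and its "downstream" a peak before the 5′ end at 40 of 41. The remaining peak, at Zfp52, lay within the gene by the coordinates used here and was kept in its deposited class. Finger codons were covered by 146 peaks at 131 genes, and 115 of these covered every finger of the gene.

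Zfp peaks stood above the average peak in both genotypes. The median log2 ChIP over input of all Zfp peaks was 0.319 ± 0.056 in WT and 0.134 ± 0.041 in KO (mean ± SD of the library medians, n = 3 libraries), against -0.062 ± 0.011 and -0.022 ± 0.024 for all peaks. In WT, 15.9% of Zfp peaks and 3.21% of all peaks were more than 2-fold above input on this scale, and in KO 9.75% and 2.42%. Zinc finger genes under other names (Zbtb, Klf, Zscan and related families and lettered Zfp genes, 399 peaks at 60 genes) were at -0.070 ± 0.032 in WT and -0.006 ± 0.038 in KO, close to the average peak.

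The highest class was that of peaks over the fingers of genes whose protein holds a KRAB-like pattern. These 102 peaks at 100 genes had a median width of 6750 bp and reached 0.862 ± 0.053 in WT and 0.730 ± 0.115 in KO. The 44 peaks over fingers of genes without the pattern, at 31 genes and 11 of them at Zfp521, had a median width of 4650 bp. They reached 0.397 ± 0.109 in WT and 0.328 ± 0.123 in KO. Peaks elsewhere in a Zfp gene, away from fingers and start sites, numbered 342, had a median width of 1650 bp and reached 0.183 ± 0.049 in WT and 0.056 ± 0.014 in KO. The WT libraries of the first class did not overlap those of the others. In both classes over fingers the WT and KO libraries overlapped, whereas elsewhere in the gene all 3 KO libraries lay below all 3 WT libraries.

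**Figure D1:**
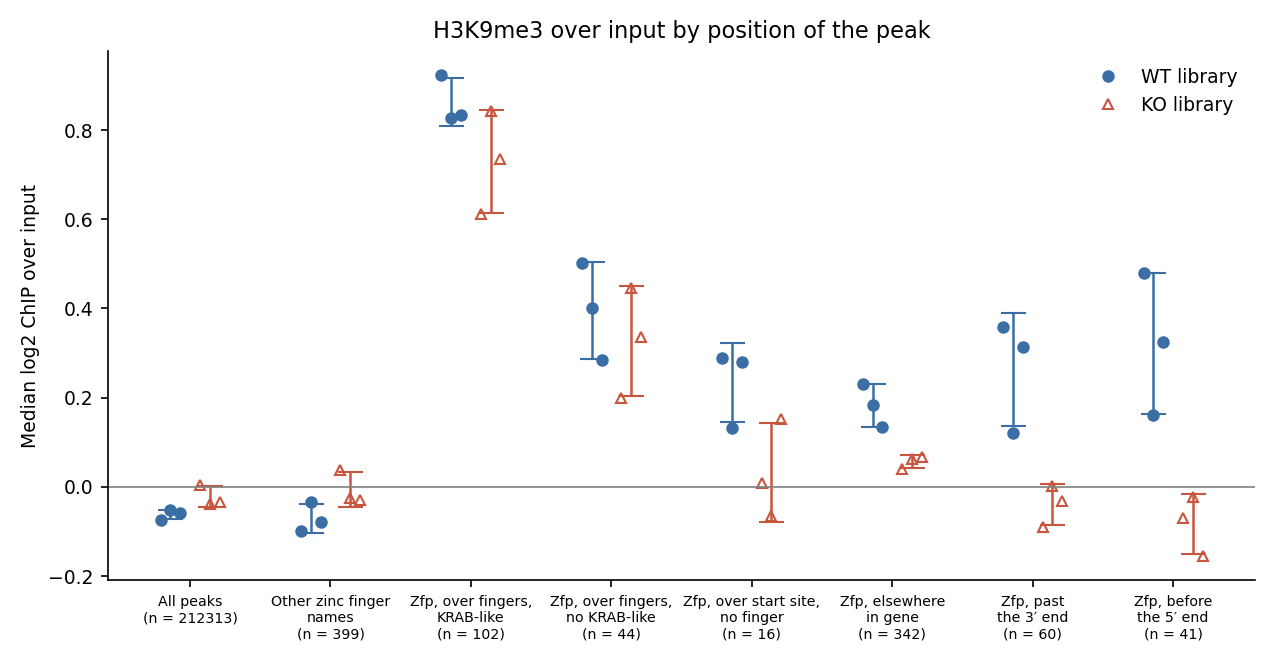
Median log2 ChIP over input (vertical axis) in each of the 3 WT (filled circles) and 3 KO libraries (open triangles) for classes of peaks (horizontal axis, n is the number of peaks), with bars for the mean ± SD of the libraries. Peaks over the fingers of genes with a KRAB-like pattern stand highest in both genotypes, and peaks outside the gene lie above 0 in WT and near or below 0 in KO.

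Genes with a KRAB-like pattern were more often marked. A peak was present at 132 of 208 such genes (63.5%) and at 68 of the other 166 Zfp genes (41%). The median number of fingers was 12 in genes with a peak and 8 in genes without. Among the 1636 H3K9me3 peaks of the whole table wider than 10000 bp, 69 (4.22%) belonged to Zfp genes, 49 of them over fingers, and the widest, at Zfp943, spanned 43500 bp. Promoters listed by RefSeq were rarely inside a peak. Of 167 genes with both a peak and a promoter in the RefSeq table (250 bases before to 50 after the start), peaks touched the promoter at 7 and covered it whole at 6.

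The number of peaks per gene was skewed. A single peak was found at 91 genes, whereas 8 genes held 10 or more, namely Zfp521 (68 peaks), Zfp536 (54), Zfp935 (26), Zfp808 (21), Zfp936 (13), Zfp943 (13), Zfp984 (12) and Zfp986 (10), named after their values were seen. None of these 8 genes had a peak that was lower in KO. Zfp521, a regulator of stem and progenitor cells of blood and other tissues, carries no KRAB domain, and its 68 peaks were at -0.037 ± 0.060 over input in WT, at the level of the average peak.

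To ask whether Smarcad1 affects the mark at these genes, KO was compared with WT peak by peak. H3K9me3 was lower in KO at 57 Zfp peaks (9.42% of 605) at 45 genes and higher at 3 (0.496%), by limma over all peaks with Benjamini-Hochberg adjusted p under 0.05. In the background of all 212313 peaks, 2.46% were lower and 0.252% higher, and of the 77485 peaks near any gene 3.92% and 0.472%. Counted by gene, 45 of the 200 Zfp genes with a peak had a lower one, beside 2439 of all 14216 genes with a peak. No Zfp gene had both a lower and a higher peak. At 21 genes every Zfp peak was lower, but of these only Zfp180, Zfp599, Zfp809, Zfp810 and Zfp850 had more than 1 peak. The rest of the 21 held a single peak. At 11 genes 2 or more peaks were lower, with 3 at Zfp445. The lower peaks ranged in log2 fold change from -1.53 to -0.23 with a median of -0.72, beside -0.82 for all lower peaks of the table, and 14 of them changed at least 2-fold. The count depended on the test and on single libraries, with 28 peaks lower by DESeq2 on recovered counts and 37 by limma without WT1. The share over all peaks fell too, to 1.47% of those given an adjusted p by DESeq2 and to 1.53% without WT1. The count of increases was 0 by DESeq2, 0 without WT2 or KO2 and 5 without WT1.

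Most Zfp peaks, in contrast, differed little between genotypes. The median log2 fold change of the 605 peaks was -0.030, with quartiles at -0.294 and 0.137, and that of all peaks was 0.028, with quartiles at -0.151 and 0.183. Below 0 were 54.4% of Zfp peaks and 45.3% of all peaks. All 3 KO values lay below all 3 WT values at 20.3% of Zfp peaks, against 8.21% of all peaks, and above them at 6.12%, against 7.3%. The values of the 57 lower peaks did not overlap between genotypes in any case. The Zfp set therefore differed from the whole table more in the tail of lower peaks than in its median.

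Position relative to the gene went with different shares. Of the 504 overlapping peaks 44 were lower (8.73%, all overlapping peaks 3.54%), with a median log2 fold change of -0.009. Past the 3′ end 8 of 60 were lower (13.3%, all such peaks 5.39%), with a median of -0.277, and before the 5′ end 5 of 41 (12.2%, all such peaks 5.43%), with a median of -0.237. Outside the gene, 71.7% and 70.7% of Zfp peaks were below 0, against 51% of the overlapping ones. Over all genes the order was the same with smaller gaps, with 54.4% past the 3′ end, 53.3% before the 5′ end and 46.1% of the overlapping peaks below 0. Among Zfp peaks, Zfp521 alone held 68, most of them over the gene, with 30.9% below 0. Repeat-masked sequence made up a median of 51.4% of the peaks past the 3′ end, 43.2% before the 5′ end and 27% over the gene, and its part in the difference was not tested.

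The decreases with the smallest p included both well studied and little known genes. Zfp809 silences retroviral elements in embryonic cells by binding the primer binding site used by proline tRNA, and its peak (chr9:22234801-22243800, 9000 bp, over finger codons) had log2 values of 8.15, 8.12 and 8.35 in WT and 6.35, 6.94 and 6.74 in KO. All KO libraries were more than 1 log2 unit below all WT libraries. By limma the log2 fold change came to -1.53 (SE 0.12, adjusted p = 1.27e-13), and over input the peak went from 0.36 ± 0.12 to -1.40 ± 0.29 (SD, n = 3), below the average peak. The input itself was similar, with 203 reads in WT and 228 in KO. A second peak of 900 bp in Zfp809 (chr9:22227751-22228650) was lower as well, by -1.39 (SE 0.27, limma adjusted p = 0.000618).

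Zfp445, which with Zfp57 protects imprinted regions from losing DNA methylation in the embryo, had 4 peaks, 3 of them lower. The one over its fingers (chr9:122851801-122862900) had log2 values of 9.25, 9.29 and 9.45 in WT and 8.07, 8.70 and 8.43 in KO, which limma put at a log2 fold change of -0.93 (SE 0.09, adjusted p = 6.16e-10). Unlike Zfp809, Zfp445 started high, at 1.11 ± 0.10 over input in WT, and was at -0.07 ± 0.34 in KO. Its other lower peaks changed by -1.08 (in the gene) and -0.75 (before the 5′ end), and a peak of 7800 bp farther before the 5′ end was not called, at -0.18 (SE 0.10, limma adjusted p = 0.53). KO1 gave the lowest value of the 6 libraries in both Zfp809 and Zfp445, and both peaks remained called without that library.

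Zfp180 had 2 adjoining peaks that were lower to different degrees. The first (chr7:24088351-24098550), over a start site and 77.1% repeat-masked, had log2 values of 8.35, 8.29 and 8.49 in WT and 7.07, 7.54 and 7.43 in KO (log2 fold change -1.03, SE 0.10, limma adjusted p = 5.09e-10). The second (chr7:24098551-24111300) covered the fingers and changed by -0.45 (SE 0.07, limma adjusted p = 6.99e-06). Over input, the finger peak went from 1.61 to 0.91 and kept more than the average level, whereas the peak at the start went from 0.33 ± 0.11 to -0.66 ± 0.25.

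Among the other peaks over fingers, Zfp111 (chr7:24191101-24204000) had log2 values of 9.91, 9.73 and 9.87 in WT and 8.97, 9.34 and 9.24 in KO (log2 fold change -0.65, SE 0.08, limma adjusted p = 2.27e-08). It was the most enriched of the lower finger peaks, at 1.63 ± 0.12 over input in WT and 0.75 ± 0.23 in KO. Zfp60 (chr7:27747601-27752100) had 7.34, 7.64 and 7.76 in WT and 6.53, 7.01 and 6.69 in KO (log2 fold change -0.84, SE 0.12, limma adjusted p = 4.18e-06). The input of Zfp60 differed in the opposite direction, with 69 reads in WT and 113 in KO, so that its fall over input, from 1.27 ± 0.21 to -0.33 ± 0.25, was larger than that of the ChIP alone. Zfp850 (chr7:27980701-28000200) had 10.28, 10.17 and 10.34 in WT and 9.85, 9.82 and 9.91 in KO, a small and tight difference of -0.40 (SE 0.06, limma adjusted p = 1.48e-05).

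The remaining named decreases were narrower peaks away from fingers. At Zfp599 (chr9:22252651-22256100) log2 values were 6.94, 6.96 and 6.91 in WT and 5.94, 5.77 and 5.78 in KO (log2 fold change -1.11, SE 0.14, limma adjusted p = 1.03e-07). At Zfp949 (chr9:88560901-88565250) they were 7.14, 7.35 and 7.05 in WT and 6.22, 6.43 and 6.01 in KO (log2 fold change -0.96, SE 0.13, limma adjusted p = 1.01e-06). Before the 5′ end of Zfp810 (chr9:22309651-22313100) they were 7.23, 7.11 and 7.02 in WT and 6.33, 6.02 and 6.33 in KO (log2 fold change -0.90, SE 0.13, limma adjusted p = 3.24e-06). The genotypes did not overlap at any of these 3 peaks, as the rule for naming peaks required. Before the 5′ end of Zfp397 on chromosome 18 the values were 6.61, 6.96 and 7.23 in WT and 5.91, 6.04 and 5.72 in KO (log2 fold change -1.05, SE 0.15, limma adjusted p = 1.64e-06). These 4 peaks lay between 0.18 and 0.61 over input in WT and between -0.72 and -0.29 in KO.

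**Figure D2:**
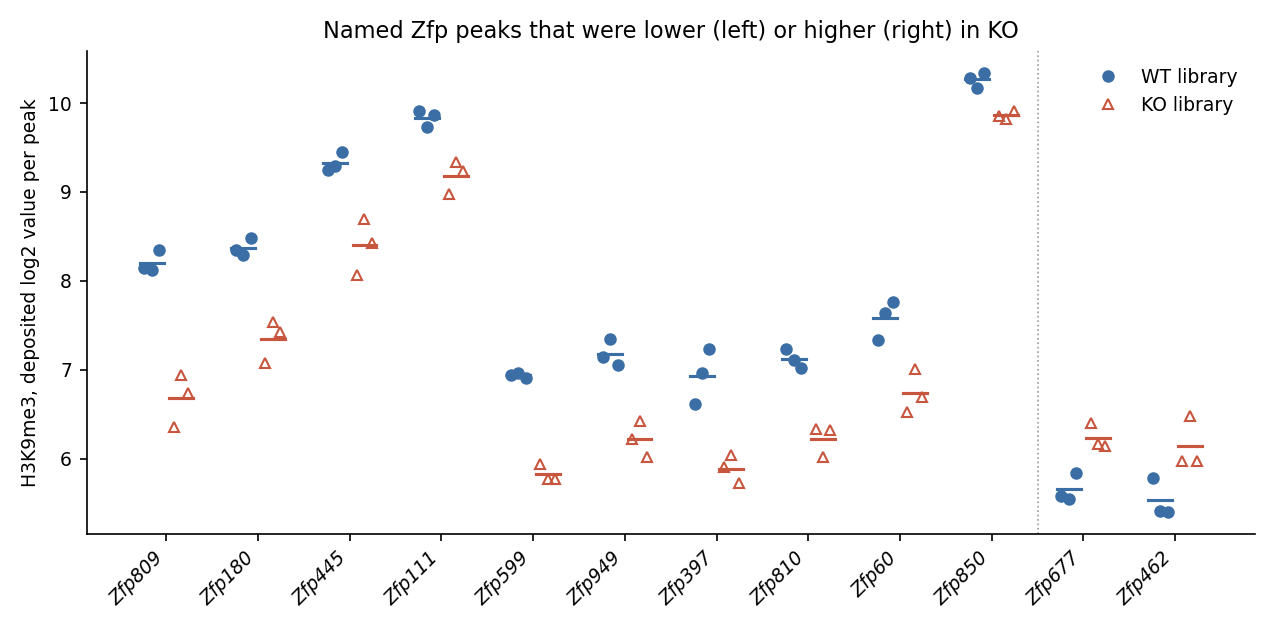
Deposited log2 value per peak (vertical axis, log2 scale) in the 3 WT (filled circles) and 3 KO libraries (open triangles) for the 10 lower peaks of smallest p and, right of the dotted line, 2 higher peaks, with lines at the group means. Peaks were chosen among those whose genotypes did not overlap, so that no lower peak has a KO value above a WT value. The gap is widest at Zfp809 (log2 fold change -1.53).

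Increases were few, and their calls depended on the test and on single libraries. Zfp677 (chr17:21395701-21398250) had log2 values of 5.58, 5.54 and 5.84 in WT and 6.41, 6.16 and 6.14 in KO (log2 fold change 0.58, SE 0.16, limma adjusted p = 0.0272). Zfp462 (chr4:55009201-55011750), a large zinc finger gene, had 5.78, 5.41 and 5.40 in WT and 5.97, 6.48 and 5.97 in KO (log2 fold change 0.61, SE 0.17, limma adjusted p = 0.0337). Both peaks lay over finger codons and below the average peak over input, at -0.40 and -0.52 in WT and -0.17 and -0.02 in KO. Neither remained called by DESeq2 on recovered counts (adjusted p of 0.342 for Zfp677 and 0.279 for Zfp462), or when single libraries were left out (WT1, WT2, KO1 or KO2 for Zfp677, and WT2, WT3 or KO2 for Zfp462). The third increase, Zfp64, named after its values were seen, had overlapping groups, with 5.85, 5.54 and 5.43 in WT and 5.76, 6.76 and 6.41 in KO (log2 fold change 0.70, limma adjusted p = 0.0148).

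The 5 genes with the highest level over input in WT, by an overlapping peak with at least 10 input reads, were not called at that peak. Zfp873 (chr10:82049401-82073250, over all 16 fingers) had log2 values of 10.76, 10.84 and 10.84 in WT and 10.67, 10.71 and 10.76 in KO, which differed by -0.10 on the log2 scale (SE 0.06, limma adjusted p = 0.556). It was at 1.64 ± 0.02 over input in WT and 1.53 ± 0.08 in KO. Zfp182 on chromosome X (chrX:21026251-21036600, over all 14 fingers) was at 1.72 ± 0.19 and 1.30 ± 0.11, and differed by -0.17 (log2 fold change, SE 0.09, limma adjusted p = 0.488). Zfp986, at 2.25 ± 0.07 and 1.18 ± 0.20, rested on 18 WT input reads and on a peak with 25% unique windows. Zfp984 had 22.7% unique windows and was at 1.76 ± 0.33 and 1.49 ± 0.33, and Zfp640 went from 1.86 to 1.195 (limma adjusted p = 0.257 and 0.574). Without WT2 the adjusted p of Zfp984 was 0.0437.

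Of 10 well known Zfp genes looked up by name, 5 had no peak, namely Zfp57, which protects imprinted regions, Zfp708, Zfp819, Zfp423 and Zfp36, an RNA-binding protein of another finger type. Zfp809 had the peaks given above. Zfp932, a KRAB repressor of endogenous retroviruses, had 6 peaks with log2 fold changes of -0.72 to -0.09, all below 0 and none called, and its peak of smallest p differed by -0.37 (SE 0.13, limma adjusted p = 0.138, and 0.0461 without KO2). Zfp568, a KRAB repressor of a placental Igf2 transcript, had 2 peaks with -0.62 and -0.58 (limma adjusted p = 0.54 for the first, with 13 and 10 input reads). Zfp42, also known as Rex1 and a marker of pluripotent cells, had 5 peaks between -0.12 and 0.25 (limma adjusted p = 0.625 for the largest). The peaks of Zfp521 ranged from -0.39 to 0.54, with an adjusted p of 0.242 by limma for that of smallest p, at 0.31. Without Zfp521, 57 of 537 Zfp peaks were lower (10.6%), with a median log2 fold change of -0.051.

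Over fingers, the called decreases were shallower than elsewhere in the gene and ended at a higher level. With the KRAB-like pattern, 15 of 102 finger peaks were lower (14.7%), beside 3.54% of all peaks that overlapped a gene. Without the pattern 2 of 44 were lower (4.55%), and 11 of these 44 peaks, none of them lower, were at Zfp521. The median log2 fold changes of these classes were -0.035 and 0.064. Elsewhere in the gene 24 of 342 peaks were lower (7.02%), with a median of -0.001. Away from fingers, in or beside the gene, Zfp521 held 57 peaks and Zfp536 held 52, none of them lower. Among called peaks, the 17 over fingers had a median width of 12750 bp, a median log2 fold change of -0.45 and library medians over input of 1.21 ± 0.05 in WT and 0.737 ± 0.146 in KO. The 24 elsewhere had a median width of 1800 bp, a median log2 fold change of -0.885, and 0.464 ± 0.042 in WT and -0.508 ± 0.040 in KO. Wide peaks hold more reads and have smaller standard errors, and smaller changes can pass the threshold there. The part of this in the contrast was not tested.

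The same contrast was looked at within genes. At 77 genes with both a finger peak and another peak, the median of the other peaks was below that of the finger peaks at 52 genes. The medians over these genes were -0.031 for finger peaks and -0.136 for the others, with widths of 9000 and 1875 bp. At 8 genes only another peak was called lower (Zfp169, Zfp26, Zfp37, Zfp558, Zfp873, Zfp949, Zfp950 and Zfp974), at 2 only the finger peak (Zfp68 and Zfp763), and at 9 both. Zfp949 shows the pattern, with -0.96 at the peak described above and -0.03 at its finger peak. Zfp873 had a lower peak of -0.58 beside its wide finger peak at -0.10. Depth differs between wide and narrow peaks, and its part in these counts was not tested.

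**Figure D3:**
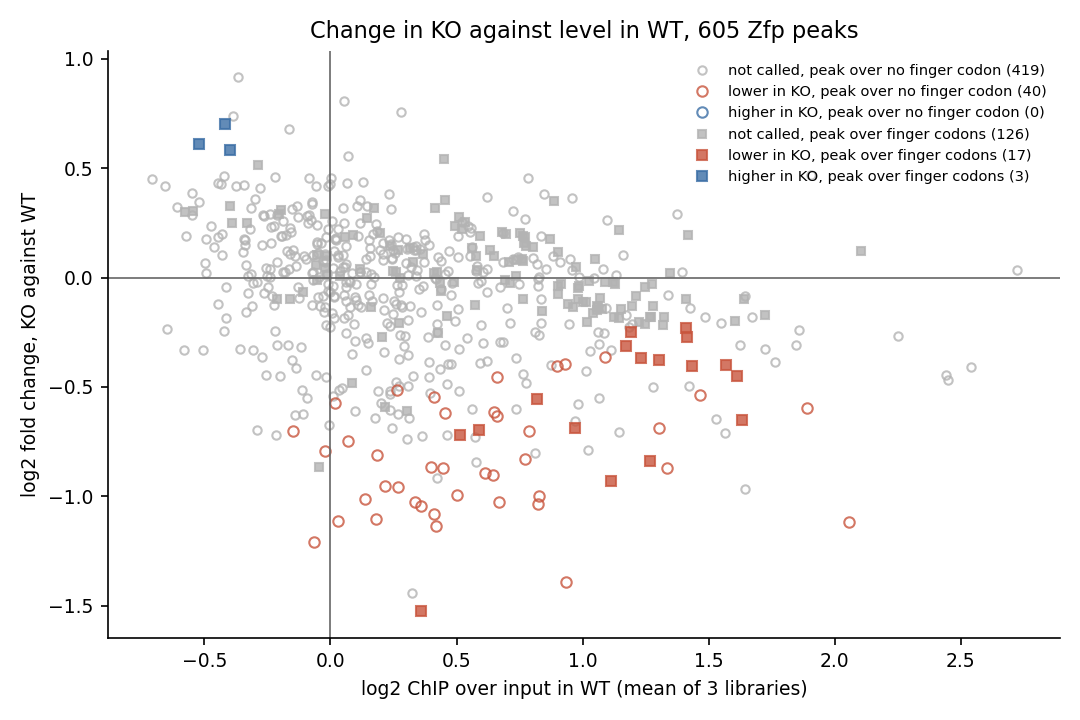
log2 fold change of KO against WT (vertical axis) against mean log2 ChIP over input in WT (horizontal axis) for the 605 Zfp peaks, squares for peaks over finger codons and circles for the rest, with called peaks coloured. Of the 17 lower peaks over fingers 12 lie above 1 over input, Zfp809 has the largest decrease of them (-1.53), and the 3 higher peaks lie below 0 over input.

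The share of lower Zfp peaks was larger at higher WT levels, whereas over the whole table it did not increase further above 1. Between -0.5 and 0 over input, 1.94% of Zfp peaks were lower (0.21% of all peaks), between 0 and 0.5 8.29% (3.21%), between 0.5 and 1 14.5% (12.9%), and above 1 18.8% (11.6%). The lowest of these shares rests on 3 lower Zfp peaks of 155, and below -0.5 0 of 13 Zfp peaks and 0 of 17256 peaks were lower by limma. The WT libraries enter both the level and the change, so that these shares are a description. Peaks with more than 50% repeat-masked sequence were 40.4% of the lower Zfp peaks and 27.9% of all Zfp peaks, beside 48.4% of all lower peaks and 34.6% of all peaks. Over the lower Zfp peaks the input differed between genotypes by a median of 0.064 (log2, KO against WT, quartiles -0.123 and 0.234), and over all Zfp peaks by 0.073. At 34 of the 57 lower peaks the mean KO level was below that of the average peak, and this was so at 3 in WT.

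Zfp genes with a peak were chained into clusters where neighbours lay under 1 Mb apart. This gave 9 clusters of at least 5 genes, which held 77 genes and 185 peaks. In clusters 18 of 185 peaks were lower (9.73%) and outside 39 of 420 (9.29%), nearly the same share and both above the 2.46% of all peaks, but the clusters differed widely among themselves. Of the 3 clusters with at least 10 genes, that on chromosome 13 (chr13:66669928-67792512, 12 genes, Zfp640 to Zfp493) had 0 lower of 27 peaks and a median log2 fold change of -0.012, and its library medians over input were 0.552 ± 0.136 in WT and 0.426 ± 0.118 in KO. Of the other peaks in this span 2 of 98 were lower (2.04%). That on chromosome 17 (chr17:21008903-23193252, 17 genes, Zfp160 to Zfp40) had 3 lower peaks of 46, at Zfp160, Zfp53 and Zfp942, and the increase at Zfp677, with a median of 0.044, while 2 of the 137 other peaks there were lower (1.46%). On chromosome 7 (chr7:29768552-30134950, 10 genes, Zfp84 to Zfp382) 0 of 14 peaks were lower and the median was -0.124, and 1 of the 8 other peaks was lower (12.5%).

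Decreases gathered in 3 smaller clusters, described after their values were seen. On chromosome 7 (chr7:24081924-24587641, Zfp180 to Zfp575, 9 genes) 5 of 14 peaks were lower, 2 at Zfp180 and 1 each at Zfp111, Zfp109 and Zfp235, and 2 of the 12 other peaks of the span. The neighbouring Zfp112, Zfp114 and Zfp93 had no called peak. Further along chromosome 7 (chr7:27731389-28014115, Zfp60 to Zfp850, 5 genes) 5 of 10 peaks were lower, at Zfp60, Zfp850 and Zfp974, and 7 of 13 other peaks. On chromosome 2 (chr2:176670522-178078476, Zfp973 to Zfp931, 5 genes) 4 of 10 were lower, at Zfp931, Zfp971 and Zfp972, with the lowest median, -0.733, and library medians over input of 1.092 ± 0.045 in WT and -0.051 ± 0.182 in KO. A median of 61.2% of windows was unique in that cluster and 88.7% of the sequence repeat-masked, against 98.5% and 28.6% in the cluster of Zfp180. In 4 of the 9 clusters no Zfp peak was lower.

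**Figure D4:**
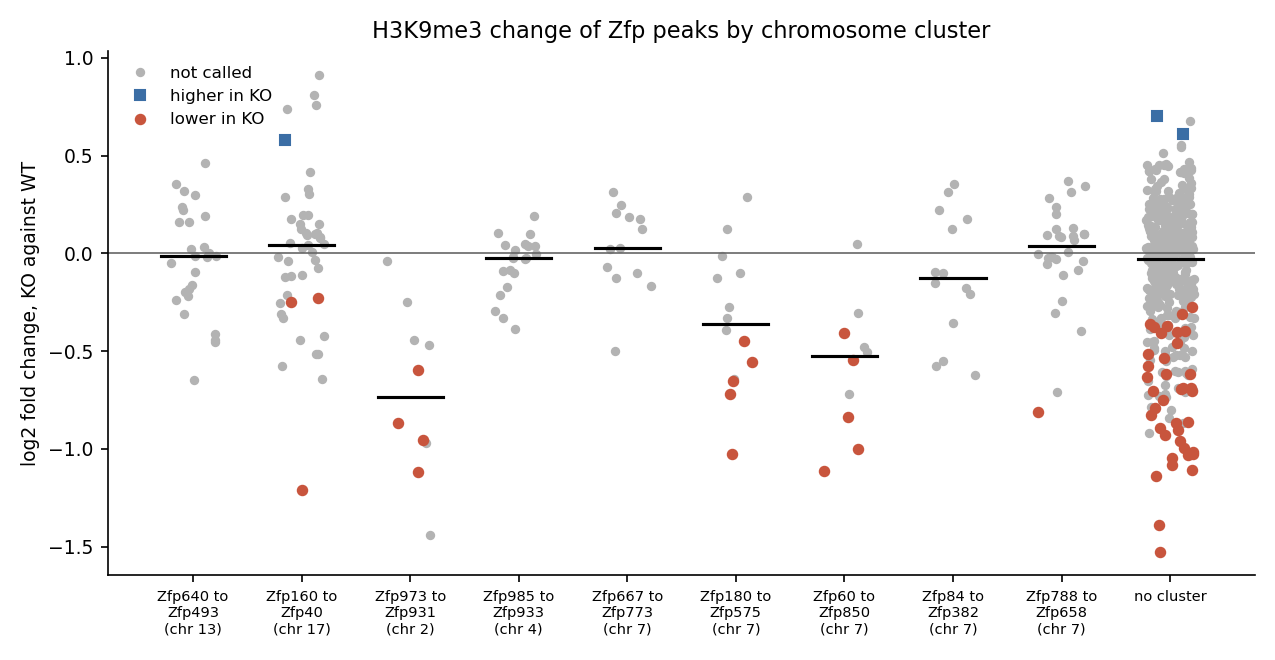
log2 fold change of KO against WT (vertical axis) of every Zfp peak in the 9 clusters and outside clusters (horizontal axis), with lines at the medians and called peaks coloured. The clusters Zfp973 to Zfp931, Zfp180 to Zfp575 and Zfp60 to Zfp850 have medians of -0.733, -0.361 and -0.525, and the other 6 lie between -0.124 and 0.044.

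Chromosome 9, singled out after its values were seen, held 12 lower peaks of 31 (38.7%) at 7 genes, with a median log2 fold change of -0.331. Of all 8135 peaks of the chromosome 3.91% were lower, and of its 3725 peaks near a gene 5.07%. Of the 12 lower Zfp peaks, 6 came from 3 neighbouring genes over 87.4 kb, Zfp809, Zfp599 and Zfp810. This stretch is none of the 9 clusters and was bounded after its values were seen, so that its 6 of 6 lower Zfp peaks follow from the choice. Their median log2 fold change was -1.001, and the 1 other peak of the stretch was lower as well. The finger peaks of Zfp599 and Zfp810 changed by -0.69 and -0.40 (limma adjusted p = 1.28e-06 and 3.76e-05), and that of Zfp810 was at 1.57 over input in WT and 1.02 in KO. The neighbour Zfp872, before Zfp809, had 2 peaks that were not called, at -0.13 (7650 bp, SE 0.08, limma adjusted p = 0.621) and -0.53 (limma adjusted p = 0.203). The peak that adjoins it, at 1810064F22Rik, was lower by -1.12 (SE 0.14, limma adjusted p = 1.16e-07).

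**Figure D5:**
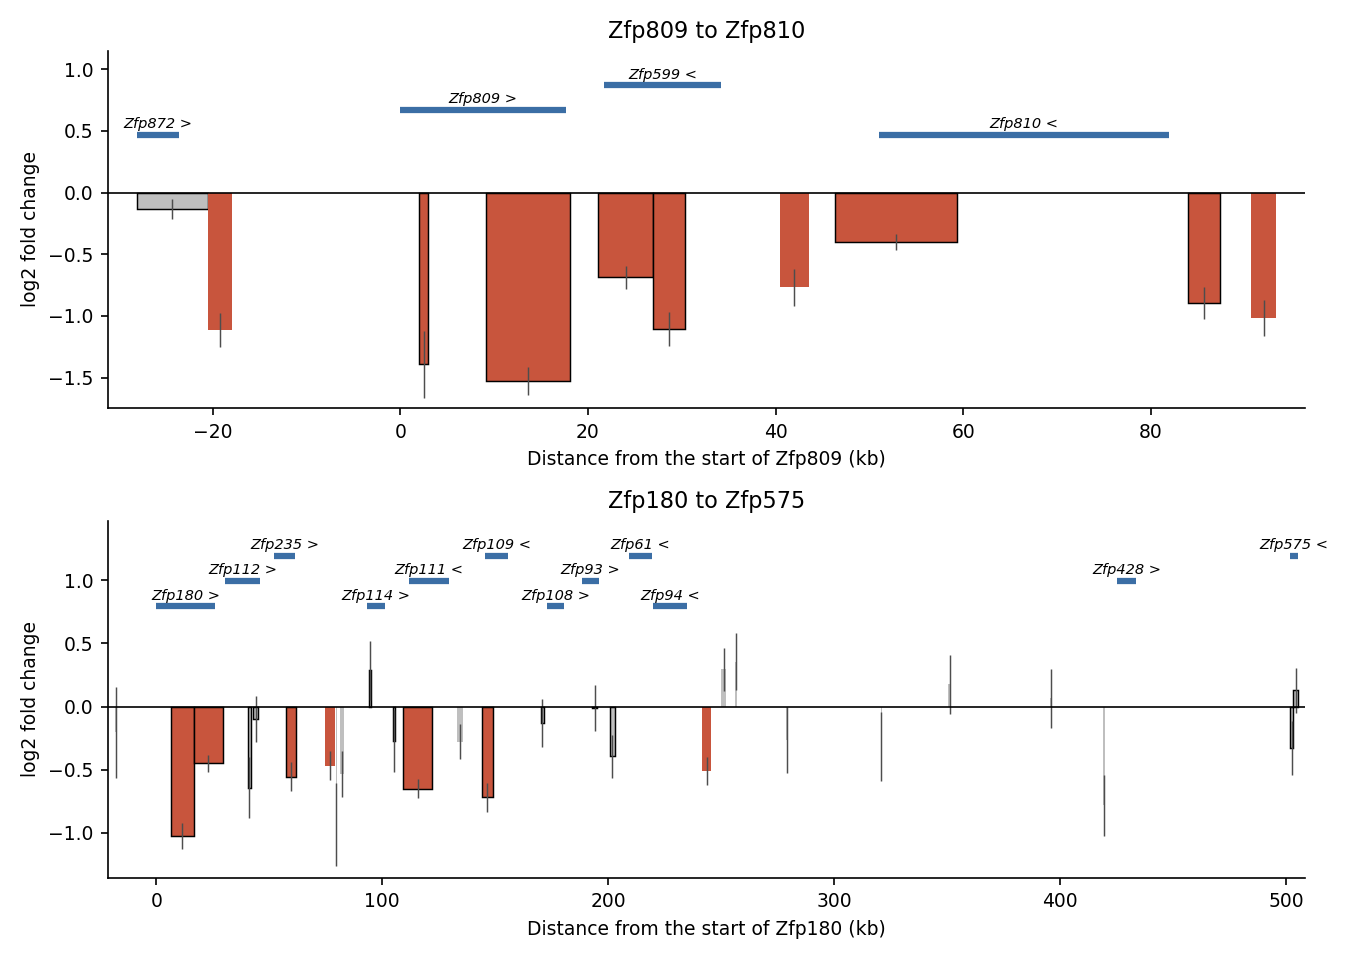
log2 fold change of KO against WT (vertical axis, lines are ± 1 SE) of each H3K9me3 peak, drawn to its width, along the blocks around Zfp809 and Zfp180 (horizontal axis, kb from the start of the first gene), with genes above and arrows for strand. Red bars were lower in KO and outlined bars belong to Zfp genes; every outlined bar of Zfp809, Zfp599 and Zfp810 is red, whereas that of Zfp872 (-0.13) is not.

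The partners of KRAB zinc finger proteins were looked up in the same table. Of 28 genes that write, bind, remove or depend on H3K9me3, 6 had a peak, with 12 peaks in all, of which 6 at 5 genes were lower and 0 higher by limma, beside 3.92% lower and 0.472% higher of all peaks near a gene. The list was chosen with earlier results of these data known. Lower were peaks at Setdb2, a member of the SETDB methyltransferase family (-1.06, limma adjusted p = 6.15e-06), Cbx3, which codes for an HP1 protein (-1.05, 7.97e-06), Hdac2, a histone deacetylase (-1.28, 0.000893), Atf7ip, the partner of SETDB1 (-0.89, 0.00102, and -0.63, 0.00222), and Fam208a, a HUSH complex subunit (-0.87, 0.00416, and 0.073 by DESeq2). Kdm4d, a demethylase, had 1 peak at -0.10 that was not called. Trim28 and Setdb1 were among the 22 genes without a peak. Among the zinc finger genes under other names, 14 of 399 peaks were lower (3.51%) and 2 higher, led by Zfp780b (-0.74, limma adjusted p = 1.19e-08), a peak past the 3′ end of Klf3 (-1.10, limma adjusted p = 5.86e-08) and one past the 3′ end of Zfp607b (-0.96, limma adjusted p = 6.58e-08). Zfp780b lies in and Zfp607b next to the cluster of Zfp60.

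Finally, H3K9me2 was looked up at the same genes. The deposited table grouped H3K9me2 peaks into 47065 regions, 126 of which named a Zfp gene (69 genes). Both tables listed 59 genes, 29.5% of the Zfp genes with H3K9me3 and 85.5% of those with H3K9me2. No Zfp region was called in either direction by edgeR or DESeq2, where 0.00212% of all regions were lower (1 region) and 0% higher by edgeR and 3 regions were lower by DESeq2. Leaving out any single library, WT1 and KO3 included, also gave no called Zfp region by edgeR. At an unadjusted p under 0.05, 3 Zfp regions were lower and 4 higher (5.56%, all regions 3.12%). The median log2 fold change was 0.006, and -0.002 over all regions. Of the 45 genes with a lower H3K9me3 peak, 12 had an H3K9me2 region, and their 27 regions also had a median of 0.006.

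The 3 Zfp regions of smallest p were Zfp618, Zfp37 and Zfp438. In Zfp618 (chr4:63047551-63049500) H3K9me2 was 2.62, 2.43 and 2.65 RPM (reads scaled to the reads of the library in all regions) in WT and 3.07, 4.00 and 4.04 in KO (log2 fold change 0.51, SE 0.17, unadjusted p = 0.00726 and adjusted p = 1 by edgeR). The H3K9me3 peak that overlaps this region was lower (-0.90, limma adjusted p = 5.82e-05), so that both marks had opposite signs there, with the H3K9me2 difference not passing the threshold. Zfp37 had 12.5 ± 0.85 RPM in WT and 10.8 ± 0.93 in KO (n = 3, log2 fold change -0.24, unadjusted p = 0.0198 by edgeR), and Zfp438 a log2 fold change of -0.31 (unadjusted p = 0.0351 by edgeR). Of the genes named by rule for H3K9me3, Zfp462 had -0.36 (unadjusted p = 0.0464 by edgeR), Zfp986 0.25, and Zfp984, Zfp850, Zfp42, Zfp873, Zfp677 and the 7 regions of Zfp521 between -0.19 and 0.20. The largest difference of any Zfp region, chosen after its value was seen, was in a narrow region of Zfp943 (chr17:22041001-22041450), with 19, 23 and 9 reads in WT and 38, 18 and 61 in KO, which overlap (log2 fold change 0.73, SE 0.33, unadjusted p = 0.0378 by edgeR). Adjusted p was 1 at each of these regions by edgeR. H3K9me2 and H3K9me3 lay together at 205 Zfp peaks (33.9%), 7 of which were among the 57 lower ones. Many of the 205 were at Zfp521 and Zfp536, genes with many peaks and none lower, so the share does not describe the typical Zfp gene.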

How the data were processed

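ChIP-seq libraries were grouped by sample title. Per the labels' processing notes, reads were trimmed with Trim Galore 0.4.4, mapped to GRCm38 with Bowtie2 2.3.2, and peaks called with MACS, once per mark over all ChIP libraries. For H3K9me3 the authors deposited log2 values of the reads in each peak (lower limit 1 read, ChIP libraries matched in distribution, inputs not), which removes any global shift. For H3K9me2 the authors deposited a signal, the mean reads per peak of a region, multiplied here by the number of peaks to give whole sums. Shorter tables of the authors held read counts of the peaks past their edgeR test, used to check those sums, and its p-value columns, not used. No value column lacked a sample.

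All H3K9me3 peaks were tested with limma 3.58.1 (trend, genotype alone), and all H3K9me2 regions with edgeR 4.0.16 quasi-likelihood tests (TMM), two-sided, with Benjamini-Hochberg adjusted p under 0.05. Read counts were recovered from the ranks of the log2 values for edgeR, DESeq2 1.42.0 and ratios over input (1 read added); 100 Zfp peaks had an extrapolated count in at least 1 library. Ratios cover reads in peaks only. The functions were tested on simulated data. Fingers and the KRAB-like pattern were found by sequence pattern in the annotated proteins of GRCm38, and unique windows with minimap2 2.31 (mapping quality of at least 20). R 4.3.3 and Python 3.11.15 were used.

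Named were the 10 lower and up to 10 higher Zfp peaks of smallest p without overlap (1 per gene), the 5 genes highest over input in WT, 10 well known genes, clusters of at least 10 genes, the 3 H3K9me2 regions of smallest p, and up to 5 silencing genes called. The members and lists were chosen with earlier results of these data known. Alternatives were other tests, scalings, filters and thresholds, single libraries left out, and a replicate block.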

Additional observations from a re-analysis of the deposited data

How the results depend on the processing

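The count of 57 lower Zfp peaks was 28 with DESeq2, 34 at an adjusted p under 0.01, 14 with an absolute log2 fold change of at least 1, and 37 to 51 with single libraries left out, lowest without WT1. Over all peaks the lower share, 2.46% in the main fit, was 1.47% of those given an adjusted p by DESeq2. It was 1.53% to 2.29% with single libraries left out. All 57 kept their direction under DESeq2, and 57 were called by edgeR on recovered counts. The 10 named lower peaks stayed called at an adjusted p under 0.05 in every refit (other tests, the filter, the replicate block and single libraries left out), but not all reached an absolute log2 fold change of 1. The count of 3 higher peaks was 0 with DESeq2, 0 at an adjusted p under 0.01, 0 with an absolute log2 fold change of at least 1, and 0 to 5 with single libraries left out (0 without WT2 or KO2, 5 without WT1). Replicate numbers did not pair the H3K9me3 libraries (correlations of -0.015, 0.009 and -0.014 between same-numbered libraries) or all H3K9me2 libraries (0.220, 0.001 and 0.113); with the replicate block, 54 peaks were lower, 53 of them shared, 3 higher, and no H3K9me2 region was called. ChIP over input of overlapping peaks in KO moved from 0.189 to 0.129 over the 449 peaks with at least 10 input reads and to 0.211 when the median peak was set to 1; left-out libraries gave 0.179 to 0.199 in KO and 0.280 to 0.343 in WT. The median log2 fold change ranged from -0.064 to -0.014 (H3K9me3) and -0.018 to 0.029 (H3K9me2) without single libraries. Zfp984 (adjusted p 0.0437 by limma without WT2) and Zfp932 (0.0461 without KO2) became lower calls.

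Reversals occurred only in H3K9me2 regions that were never called. Without single libraries, log2 fold changes ranged from -0.024 to 0.341 and from -0.144 to 0.006 (Zfp984), from -0.147 to 0.055, including 0.001, and from -0.443 to 0.014 (Zfp850), from -0.048 to 0.046, including -0.002 and -0.028 (Zfp42), from -0.106 to 0.007 (Zfp873), from -0.012 to 0.220 and from -0.035 to 0.210 (Zfp677), and from -0.035 to 0.034, including 0.002 and 0.019, and from -0.058 to 0.023 (Zfp521). The first of these Zfp521 regions, at -0.002, was 0.005 without TMM, 0.001 with at least 100 reads and 0.001 with the replicate block. The causes were not tested. The number of libraries and a median of 23 to 38 reads per H3K9me3 peak limit what narrow peaks can show.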

Other observations

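At the 13 H3K9me3 peaks of the 4 Zfp genes on chromosome X, the library medians over input were 0.959 ± 0.129 in WT and 0.859 ± 0.128 in KO (SD, n = 3). Leaving out peaks with less than 90% unique windows gave 47 lower of 423 Zfp peaks (11.1%) and 3 higher. Ratios over input rest on 1 input library per genotype, so their error covers the ChIP libraries alone.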
